A study of Mus musculus with 24 samples.

Results

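The nuclear genes that encode the subunits of the 5 mitochondrial respiratory chain complexes were followed through RNA sequencing of liver immune cells that had or had not taken up injected liposomes. Members were taken by symbol: every protein-coding mouse gene whose symbol starts with Ndufa, Ndufb, Ndufc, Ndufs, Ndufv, Sdh, Uqcr, Cox4 to Cox8 or Atp5, without the Ndufaf and Sdhaf assembly factors and Cox6a2. Of 84 such genes in the deposited values, Cox7b2 and Cox8c were listed at 0 in every library and 82 had a value other than 0, out of 24874 genes of that kind in all. They comprise 38 genes of complex I, 4 of complex II, 8 of complex III, 15 of complex IV and 17 of complex V.

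Female C57BL/6 mice had eaten a diet lacking methionine and choline for 2 weeks, which produces a fatty, inflamed liver, and had then received liposomes labelled with the membrane dye DiI by intravenous injection. The liposomes were either empty or loaded with curcumin, a polyphenol from turmeric. At 24 hours, liver cells positive for both CD11c and MHC class II, the surface markers used here for dendritic cells, were sorted by whether they carried DiI. Each liposome thus has a DiI-positive and a DiI-negative group, and each of the 4 groups holds 3 libraries. All groups share the strain, the sex, the diet and a liposome injection, and none of the groups used here was on a normal diet or without liposomes. Whether replicate libraries stem from different mice is not stated in the labels, so the p-values reflect only how far these libraries differ, which may be technical.

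The respiratory chain sits in the inner mitochondrial membrane. Complex I (NADH dehydrogenase) and complex II (succinate dehydrogenase) pass electrons to coenzyme Q, complex III hands them on to cytochrome c, and complex IV (cytochrome c oxidase) reduces oxygen. Complexes I, III and IV pump protons, and complex V, the ATP synthase, uses the proton gradient to make ATP. Subunits come from both genomes: a small number of core subunits of complexes I, III, IV and V are encoded in mitochondrial DNA, and all others, with every subunit of complex II, are nuclear. Dendritic cells and macrophages are known to shift between respiration and glycolysis as they mature or become activated.

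Values are the authors' log2 normalized values, and a difference is a difference of group means on that scale with its standard error from limma. A gene is said to have risen or fallen where its limma p, adjusted over 14227 genes (those averaging 4 or more on the log2 scale), was under 0.05. The filter kept 78 members: 37 of complex I, all of complexes II, III and V, and 12 of complex IV. The depth of the libraries is not given by the values. An index was read from genes with reads in only 1 library. It was lowest, at 0.83 and 0.86, in replicate 2 of the 2 DiI-positive groups. It was highest, at 1.33, in replicate 1 of the empty DiI-negative group. The index takes the depths to lie within a doubling of each other, since a doubled depth gives the same steps. It rests on few genes in some libraries, with 8 of 16 matching in curcumin DiI-positive replicate 1. The index ran from 0.83 to 1.15 in DiI-positive and from 1.03 to 1.33 in DiI-negative libraries, so it moved with the gate.

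The sorted populations differed in cell type markers, and these values stand beside every comparison of the gates below. The summed log2 level of 8 Kupffer cell genes (the macrophages resident in liver sinusoids) was 13.93 to 14.32 in the DiI-negative libraries of both liposomes and 15.47 to 17.17 in the DiI-positive ones, and all 8 rose. All 8 B cell genes rose as well, from a summed level of 15.76 to 16.27 up to 16.4 to 17.54. Of 8 NK and T cell genes 6 fell, with summed levels of 13.03 to 13.68 against 11.37 to 12.13, as did 5 of 6 monocyte genes and 5 of 8 genes of type 2 conventional dendritic cells. Of 6 sinusoidal endothelial genes 2 rose, with summed levels of 10.88 to 11.66 against 11.93 to 13.8. No marker of these lists was at 0 in all libraries. Replicate 3 of both curcumin groups stood apart in dendritic cell genes: 8 genes of type 1 conventional dendritic cells summed to 15.69 and 15.2 there and to 14.25 to 14.77 elsewhere, and 4 plasmacytoid genes to 13.23 and 13.09 against 11.72 to 12.2. Curcumin DiI-positive replicate 3 also had an endothelial sum of 13.8, against 11.93 to 12.3 in the other DiI-positive libraries, and a B cell sum of 16.4, against 17.25 to 17.54. The 4 genes that define the sorting gate summed to 19.73 to 20.13 in every library, and 1 of the 4 fell, with a list median of -0.19. The part of these differences in the results on respiratory chain genes was not tested, and in bulk RNA fewer cells of a type and less RNA per cell cannot be told apart.

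The subunit genes were expressed at very different levels per unit of length. Dividing by the median length of the principal coding transcripts, the mean log2 level per kilobase over all libraries was highest for Uqcrc1 (13.07), which encodes the large core protein of complex III, then for Cox4i1 (12.98), the main isoform of cytochrome c oxidase subunit 4, and Atp5b (12.77), the catalytic beta subunit of ATP synthase. The median log2 level per kilobase of the members tested was 10.41 in complex I, 11.31 in complex II, 11.19 in complex III, 11.11 in complex IV and 11.10 in complex V. In complex I it was highest for Ndufa7 (11.33). In complex II Sdhb, the iron-sulfur subunit, had 11.70 and Sdha, the flavoprotein, 11.68, whereas the membrane anchor gene Sdhc had 6.96. These values depend on the transcript chosen: the annotated transcripts of Sdhc, Ndufb2 and Atp5g1 have a median principal length of 3171, 2413 and 2675.5 bases, and their low rank per length rests on it.

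Tissue isoforms separated clearly on the same per-kilobase log2 scale. Cox4i1 had a level of 12.98 and Cox4i2, the isoform known from lung, 0.53. Cox8a had 11.91 and the heart and muscle isoform Cox8b -0.34, with Cox8c listed at 0. Cox7a2 had 10.03, its relative Cox7a2l 11.05 and the muscle isoform Cox7a1 4.29. Cox6b1 had 11.17 against 5.69 for Cox6b2, known from testis, and Ndufa4 had 10.73 against -0.58 for Ndufa4l2. Cox7b had 9.58, and its testis relative Cox7b2 was listed at 0. Cox4i2, Cox7a1, Cox8b and Ndufa4l2 were the 4 members under the filter. Each of them spanned less than 0.12 between its lowest and highest library, and values this low on the authors' scale barely vary, so no difference between groups could be read from them. The 3 genes for the membrane-ring subunit c of ATP synthase, which make the same mature peptide, had levels of 8.52 for Atp5g1, 9.14 for Atp5g2 and 10.07 for Atp5g3.

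**Figure D1:**
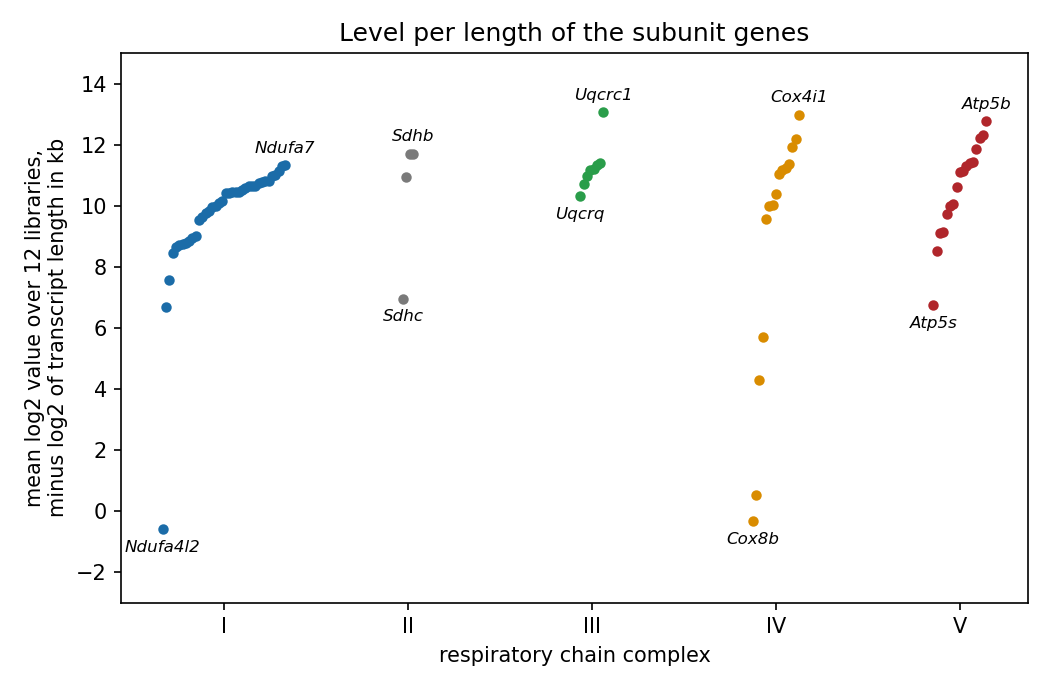
Mean log2 value over the 12 libraries minus the log2 of transcript length in kilobases (vertical axis) for each of the 82 members, 1 point a gene, by complex (horizontal axis); the highest and lowest gene of each complex are named. Uqcrc1 at 13.07 is highest of all, and the isoforms Ndufa4l2 and Cox8b lie below 0.

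Averaged over both liposomes, most respiratory chain genes had lower values in DiI-positive than in DiI-negative cells, by amounts that few single genes carried past the threshold. The difference was below 0 for 70 of 78 members (89.7%), against 48.9% of all genes tested. The median difference was -0.14, which is a change of -9.1%, against 0.005 over all genes tested. In complex I 32 of 37 genes lay below 0 and in complex III 8 of 8. In complex IV 11 of 12 did and in complex V 16 of 17. The medians of these complexes were -0.11, -0.12, -0.15 and -0.16. Complex II differed least, with 3 of its 4 genes below 0 and a median of -0.05. The complexes were not tested against each other. By limma's adjusted p, 3 members fell and 1 rose, 5.13% of those tested, against 12.1% of all genes (6.56% lower and 5.54% higher), so the share of members called was below the background. At an unadjusted p under 0.05 there were 26 of 78 members and 3770 of 14227 genes, a somewhat larger share of members.

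**Figure D2:**
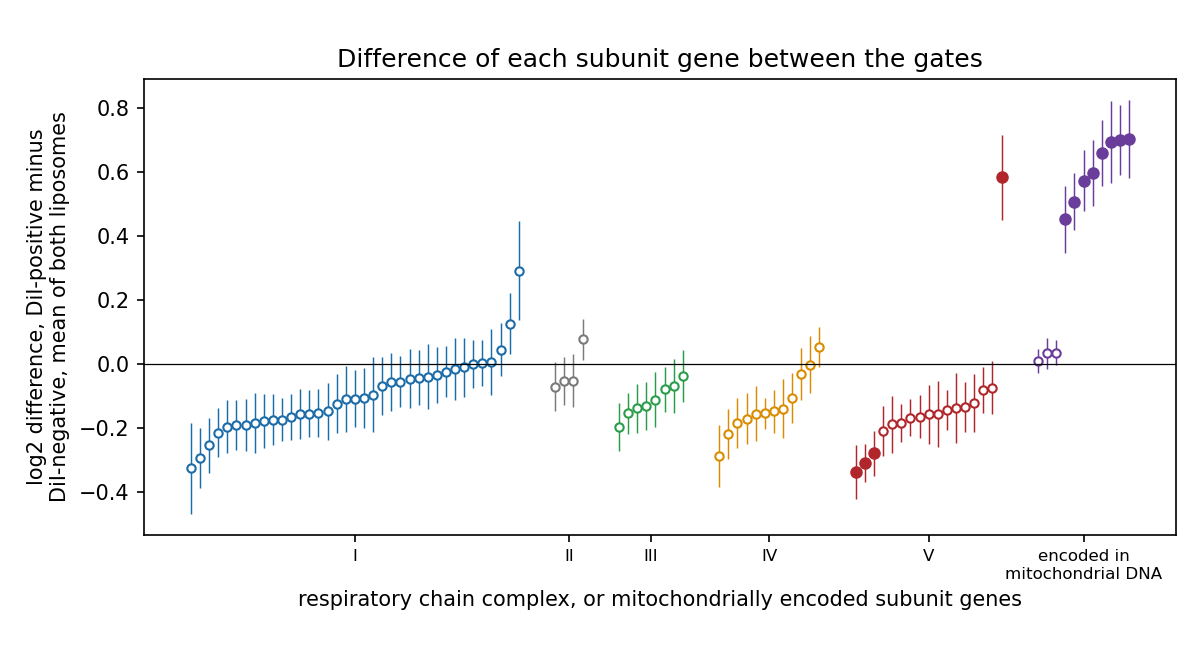
Log2 difference between DiI-positive and DiI-negative cells, averaged over both liposomes (vertical axis), for each tested nuclear subunit gene by complex, and for the 11 tested subunit genes encoded in mitochondrial DNA, ordered by size (horizontal axis). Bars are standard errors from limma and filled points passed the threshold; 70 of 78 nuclear genes lie below 0, and 8 mitochondrially encoded genes lie between 0.45 and 0.70.

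All 4 called members carry ATP synthase symbols. Their promoters, and that of Ndufs4, which had the lowest difference in complex I, are shown because genes of this class are known to share sites for the nuclear respiratory factors NRF1 and NRF2 (an ETS-family complex) and for YY1. RefSeq promoters on GRCm38.p6, from 250 bases before to 50 bases after the start site, were matched for 68 members. They were searched on both strands for GCGCA and GCGC with any 1 base between them (NRF1), CCGGAAG (ETS) and AAGATGGC (YY1), none of which contains another, and the letters found are in capitals. Atp5c1 has 2 RefSeq promoters, and the one with a match is shown.
Atp5c1, chr2:10080383-10080682, minus strand: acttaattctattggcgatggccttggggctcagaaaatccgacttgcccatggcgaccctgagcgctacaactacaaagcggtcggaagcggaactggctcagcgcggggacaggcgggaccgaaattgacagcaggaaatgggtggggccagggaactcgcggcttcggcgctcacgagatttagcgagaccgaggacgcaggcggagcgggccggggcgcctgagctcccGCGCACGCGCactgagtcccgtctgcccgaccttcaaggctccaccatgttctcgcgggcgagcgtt
Atp5h, chr11:115419870-115420169, minus strand: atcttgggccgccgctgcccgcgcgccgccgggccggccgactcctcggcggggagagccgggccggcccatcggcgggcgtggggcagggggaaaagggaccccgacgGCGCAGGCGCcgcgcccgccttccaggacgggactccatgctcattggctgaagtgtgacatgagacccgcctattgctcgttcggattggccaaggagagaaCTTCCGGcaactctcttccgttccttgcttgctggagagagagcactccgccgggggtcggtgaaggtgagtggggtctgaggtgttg
Atp5g1, chr11:96075582-96075881, minus strand: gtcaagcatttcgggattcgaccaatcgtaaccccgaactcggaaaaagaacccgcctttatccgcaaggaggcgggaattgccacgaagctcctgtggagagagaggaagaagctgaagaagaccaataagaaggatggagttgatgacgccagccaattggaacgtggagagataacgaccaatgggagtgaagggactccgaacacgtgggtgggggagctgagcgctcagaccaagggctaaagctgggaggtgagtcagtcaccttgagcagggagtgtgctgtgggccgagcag
Atp5s (Dmac2l in RefSeq), chr12:69724695-69724994, plus strand: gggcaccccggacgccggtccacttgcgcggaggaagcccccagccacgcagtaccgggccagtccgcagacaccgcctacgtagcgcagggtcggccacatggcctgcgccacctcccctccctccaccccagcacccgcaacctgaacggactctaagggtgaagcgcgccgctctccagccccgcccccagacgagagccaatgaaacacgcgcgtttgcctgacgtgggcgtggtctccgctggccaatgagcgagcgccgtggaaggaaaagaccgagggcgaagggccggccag
Ndufs4, chr13:114388045-114388344, minus strand: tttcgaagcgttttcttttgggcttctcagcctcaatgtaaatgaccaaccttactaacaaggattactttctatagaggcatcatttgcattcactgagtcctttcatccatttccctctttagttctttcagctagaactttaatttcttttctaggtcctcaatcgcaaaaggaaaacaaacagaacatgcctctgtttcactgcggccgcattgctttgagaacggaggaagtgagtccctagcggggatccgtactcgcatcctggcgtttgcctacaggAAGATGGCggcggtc

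The promoter of Atp5c1 holds the NRF1 letters 17 bases before the start. That of Atp5h holds them 141 bases before it and the ETS letters, on the other strand, 38 bases before it. The window of Ndufs4 holds the YY1 letters 36 bases after the start, and those of Atp5g1 and Atp5s hold none of these letters. Over the members matched, NRF1 letters were present in 25.0% of promoters (17 genes) against 7.2% of 17486 protein-coding genes, YY1 letters in 14.7% against 3.6%, and ETS letters in 16 members (23.5%) against 2265 of the coding genes. At least 1 of the 3 was present in 37 of the 68 members and 3678 of the 17486 coding genes. A match describes the letters and not a bound site.

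Atp5c1 encodes the gamma subunit, the central shaft of ATP synthase (ENSMUSG00000025781, chr2:10056016-10080510 on GRCm38). Its log2 value was 12.56, 12.53 and 12.51 in the 3 empty DiI-negative libraries and 12.28, 12.21 and 12.36 in the empty DiI-positive ones. After curcumin liposomes it was 12.66, 12.73 and 12.65 in DiI-negative and 12.20, 12.30 and 12.42 in DiI-positive libraries. Every DiI-positive library was below every DiI-negative one, with no overlap under either liposome. The gene fell by 0.31 ± 0.06 (limma adjusted p = 0.0064), a change of -19.4%. The annotation also holds a pseudogene named Atp5c1-ps, and how the authors counted reads shared with it is not given in the sources used here.

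Atp5h encodes subunit d of the peripheral stalk (ENSMUSG00000034566, chr11:115415689-115419962). It measured 10.85, 10.56 and 10.81 in empty DiI-negative and 10.38, 10.42 and 10.55 in empty DiI-positive libraries, with the highest of the second group just under the lowest of the first. After curcumin liposomes it measured 10.92, 10.97 and 10.88 against 10.71, 10.35 and 10.55. It fell by 0.34 ± 0.08 (limma adjusted p = 0.0241).

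Atp5g1, 1 of the 3 subunit c genes (ENSMUSG00000006057, chr11:96068852-96075670), had log2 values of 9.98, 10.08 and 10.05 in empty DiI-negative and 9.81, 9.76 and 9.67 in empty DiI-positive libraries. After curcumin liposomes the values were 10.18, 10.17 and 10.01 against 9.89, 9.88 and 9.78. Neither pair of groups overlapped, and the gene fell by 0.28 ± 0.07 (limma adjusted p = 0.0248). Its paralogs had smaller differences that did not pass: -0.12 ± 0.09 for Atp5g2 and -0.14 ± 0.08 for Atp5g3 (limma adjusted p = 0.421 and 0.308). Reads from the stretch that the 3 genes share may have been divided among them, since the counting is not given.

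Atp5s was the 1 member that rose. It encodes coupling factor B, named Dmac2l in RefSeq, which is not counted among the structural subunits of the enzyme (ENSMUSG00000054894, chr12:69724950-69744660). Its log2 value was 7.26, 7.14 and 7.03 in empty DiI-negative and 7.44, 8.11 and 7.51 in empty DiI-positive libraries. After curcumin liposomes it was 6.96, 7.09 and 7.01 against 7.70, 7.85 and 7.38. Every DiI-positive library was above every DiI-negative one, and the gene rose by 0.58 ± 0.13 (limma adjusted p = 0.0159), a change of 49.8%. Its highest values under each liposome were in replicate 2, the libraries with the lowest depth index. With that index as a covariate the difference was 0.44 and did not pass (limma adjusted p = 0.174).

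The 2 large subunits of the catalytic head did not pass. Atp5b was 13.82, 13.71 and 13.73 against 13.55, 13.51 and 13.66 under empty liposomes and 13.83, 13.82 and 13.88 against 13.52, 13.65 and 13.78 under curcumin liposomes, a difference of -0.19 ± 0.06 (limma adjusted p = 0.0671). Atp5a1, the alpha subunit, differed by -0.17 ± 0.06 (limma adjusted p = 0.0786). Neither gene overlapped between the gates under either liposome. Including the relative depth index as a covariate, an alternative added after the data were seen, ended all 4 calls, with limma adjusted p of 0.0691 for Atp5c1, 0.107 for Atp5g1, 0.174 for Atp5s and 0.21 for Atp5h, while the median over the members was -0.14 as before. The differences of these genes were then -0.30, -0.30, 0.44 and -0.27 in that order. Calls over all genes went from 1722 to 450 (3.16%) in the same fit. It uses the size of the index, although only the order of the depths is known. Over 21 alternatives, this one included, Atp5c1 and Atp5s kept their call in 20, Atp5g1 in 14 and Atp5h in 12. Atp5h missed the threshold without empty DiI-negative replicate 1 or 3, empty DiI-positive replicate 1 or 2, curcumin DiI-negative replicate 1 or 2, or curcumin DiI-positive replicate 2, and Atp5g1 without empty DiI-negative replicate 2 or 3, empty DiI-positive replicate 3 or curcumin DiI-negative replicate 1 or 2. In these cases the limma adjusted p reached at most 0.0647 and 0.0642.

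**Figure D3:**
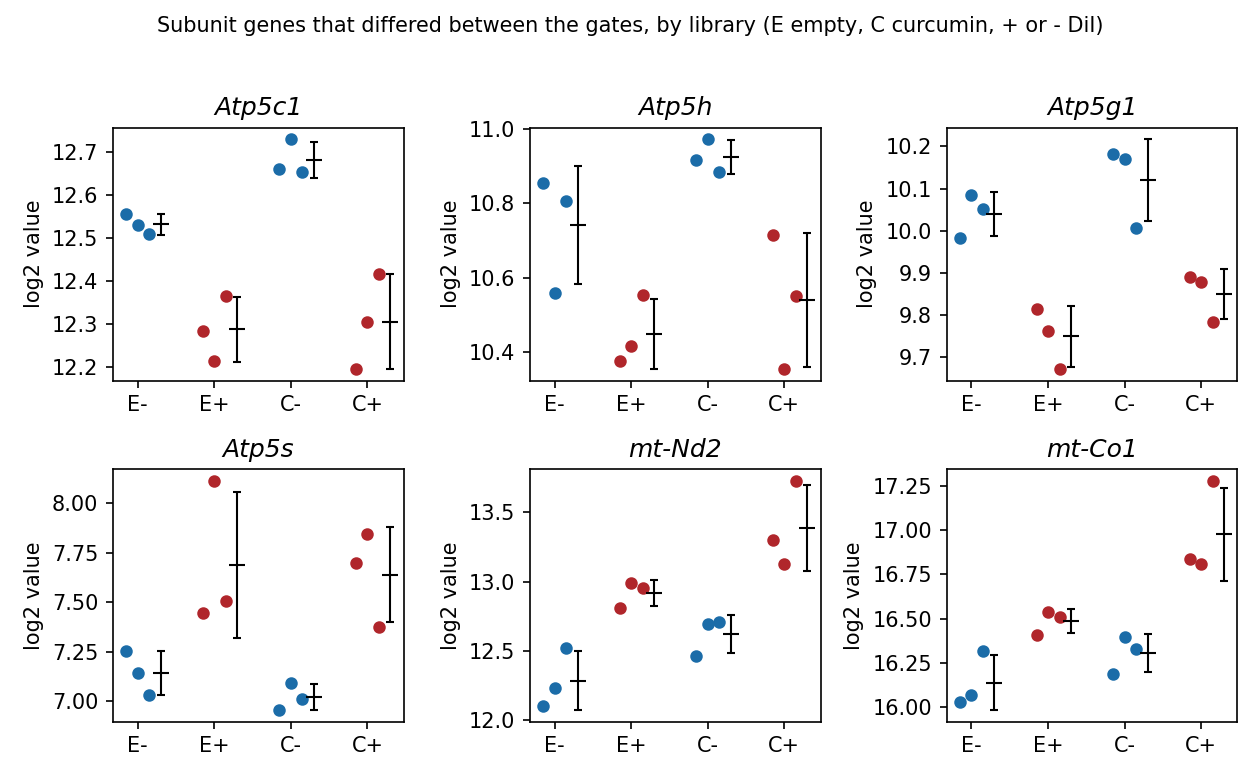
Log2 value (vertical axis) in each of the 12 libraries for the 4 called members and for mt-Nd2 and mt-Co1, which are encoded in mitochondrial DNA, by group (horizontal axis; E empty and C curcumin liposomes, + and - for DiI). Points are libraries and bars the mean and SD of 3; Atp5c1, Atp5h and Atp5g1 lie lower, and Atp5s, mt-Nd2 and mt-Co1 higher, in the DiI-positive groups.

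In complex I no gene passed the threshold in this comparison by limma. An unadjusted p under 0.05 was found for 10 of 37, about the same share as the 3770 of the 14227 genes. Ndufb3, an accessory subunit of the membrane arm, was 8.43, 8.50 and 8.58 in empty DiI-negative and 8.20, 8.13 and 8.29 in empty DiI-positive libraries, and 8.51, 8.81 and 8.38 against 8.21, 8.30 and 8.30 after curcumin liposomes. The groups did not overlap, and the difference was -0.30 ± 0.09 (limma adjusted p = 0.0647). Ndufb6 and Ndufc2, also of the membrane arm, had -0.26 ± 0.09 and -0.22 ± 0.08 (limma adjusted p = 0.0794 and 0.0965). In both, curcumin DiI-positive replicate 1 overlapped the DiI-negative libraries, at 9.43 for Ndufb6 and 9.40 for Ndufc2.

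Core genes of complex I are given next, and none of those named passed the threshold. Ndufs7, of the iron-sulfur core, had a difference of 0.12 ± 0.10. Ndufv1, which binds NADH, had -0.16 ± 0.07, Ndufs8 -0.15 ± 0.09, Ndufv2 -0.11 ± 0.09, Ndufs1 0.00 ± 0.07 and Ndufs3 0.04 ± 0.08. Exons of Ndufs1 and Ndufs3 overlap a gene on the other strand, as do those of Ndufb2, Ndufb5, Ndufb6, Uqcrb, Uqcrc2, Cox4i1, Cox5a, Atp5a1 and Atp5l. The library kits are not stated to keep strand, so reads of such pairs cannot be told apart, and 29 members overlap another gene in this way or on the same strand.

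Ndufs4, an accessory subunit of the electron-input arm, and Ndufb2, of the membrane arm, varied most within groups of all members, with within-group SDs of 0.26 and 0.28 against a median of 0.11 over the members. Ndufs4 was 9.55, 9.65 and 9.73 against 9.61, 8.997 and 9.48 under empty liposomes and 9.56, 9.66 and 9.62 against 9.30, 8.81 and 9.60 under curcumin liposomes. Its low values were those of DiI-positive replicate 2 under both liposomes, and its difference was -0.33 ± 0.14 (limma adjusted p = 0.165). Ndufb2 was highest in the same 2 libraries, at 8.34 and 8.65, and its difference was 0.29 ± 0.16 (limma adjusted p = 0.265). Those 2 libraries have the lowest depth index. With that index as a covariate no member passed, and the differences of these 2 genes in that fit are not reported here.

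Succinate dehydrogenase differed least between the gates. Sdha had values of 13.08, 13.20 and 13.27 in empty DiI-negative and 13.36, 13.09 and 13.19 in empty DiI-positive libraries, and 13.10, 13.18 and 13.23 against 13.32, 13.34 and 13.21 after curcumin liposomes. Its difference was 0.08 ± 0.07 (limma adjusted p = 0.509). Sdhb had -0.05 ± 0.07, Sdhc -0.05 ± 0.08 and Sdhd, the second membrane anchor, -0.07 ± 0.08. The libraries of the gates overlapped for all 4 genes under both liposomes, and no gene of the complex had an unadjusted p under 0.05 in any of the comparisons.

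All 8 genes of complex III were lower in DiI-positive cells without passing the threshold. Of these, 2 had an unadjusted p under 0.05, about the same share as the 3770 of the 14227 genes. Uqcrq, a small subunit, was 10.29, 10.31 and 10.44 against 10.14, 10.16 and 10.21 under empty liposomes. After curcumin liposomes it was 10.38, 10.50 and 10.20 against 10.19, 10.04 and 10.20. The groups did not overlap before rounding, and the difference was -0.20 ± 0.08 (limma adjusted p = 0.115). Uqcrc1 had -0.16 ± 0.06 (limma adjusted p = 0.144), Uqcrh, the hinge protein, -0.14 ± 0.08, the Rieske iron-sulfur protein gene Uqcrfs1 -0.08 ± 0.07 and the second core protein gene Uqcrc2 -0.04 ± 0.08.

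In complex IV 5 of 12 genes had an unadjusted p under 0.05, a larger share than the 3770 of the 14227 genes. None passed limma's adjusted threshold. Cox7b, a small accessory subunit, was 9.70, 9.70 and 9.72 against 9.49, 9.55 and 9.41 under empty liposomes and 9.68, 9.90 and 9.63 against 9.63, 9.12 and 9.40 under curcumin liposomes. Its difference was -0.29 ± 0.10 (limma adjusted p = 0.0776). Cox6a1 had -0.22 ± 0.08 (limma adjusted p = 0.0944) and Cox6b2 -0.16 ± 0.05 (limma adjusted p = 0.0552), the last at a level where the authors' scale compresses differences. Cox5b had -0.19 ± 0.08 and Cox4i1 -0.15 ± 0.07, whereas Cox5a had 0.00 ± 0.09 and Cox7a2l 0.05 ± 0.06. The remaining isoform partners named above were in between: Cox6b1 at -0.16 ± 0.09, Cox7a2 at -0.14 ± 0.09 and Cox8a at -0.17 ± 0.08.

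Within each liposome the direction was alike and the calls fewer. Under empty liposomes limma called 0 of 78 members, against 2.95% of all genes (1.32% higher and 1.62% lower). At an unadjusted p under 0.05 there were 8 of 78 members and 2540 of the 14227 genes, a smaller share of members. There 66 members lay below 0 and the median difference was -0.11. Under curcumin liposomes 11 of 78 members and 2596 of the 14227 genes had an unadjusted p under 0.05, again a smaller share of members. By the adjusted p limma called 1 member, against 3.07% of all genes (1.41% higher and 1.67% lower). That gene was Atp5c1, which fell by 0.38 ± 0.08 (limma adjusted p = 0.0341), and under empty liposomes it had -0.25 ± 0.08 (limma adjusted p = 0.143). The difference between these 2 values was -0.13 ± 0.12 (limma adjusted p = 0.999). The call of Atp5c1 under curcumin liposomes was kept in 8 of 22 alternatives, and leaving out any library other than empty DiI-positive replicates 2 and 3 and curcumin DiI-positive replicate 3 ended it. With curcumin liposomes 67 members lay below 0 with a median of -0.14, and this median was -0.07 without curcumin DiI-negative replicate 2. In all, 61 members lay below 0 under both liposomes and 6 above 0 under both.

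The libraries themselves show the same separation. Under empty liposomes all 3 DiI-positive libraries lay below all 3 DiI-negative libraries for 32 members (41.0%), against 14.5% of all genes, and above them for 1 member, Atp5s, against 12.3%. Under curcumin liposomes the counts were 19 members lower (24.4%), against 10.7% of all genes, and again Atp5s higher, against 9.88%. Both liposomes showed this together for 12 members (15.4%), against 5.29% of all genes: Atp5a1, Atp5b, Atp5c1, Atp5g1, Atp5h, Cox6a1, Cox6b2, Cox7b, Ndufa4, Ndufb3, Ndufb9 and Uqcrq. Atp5s was higher in this way, against 3.99% of all genes. Ndufa4, counted with complex I by its symbol and now known as a subunit of complex IV, had a difference of -0.17 ± 0.07 (limma adjusted p = 0.155).

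**Figure D4:**
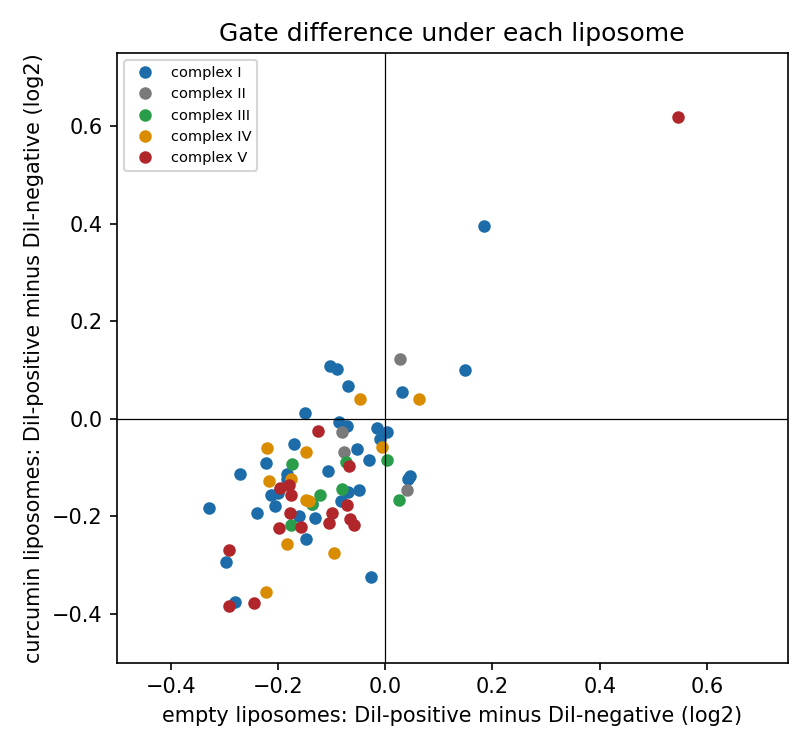
Log2 difference between DiI-positive and DiI-negative cells under empty (horizontal axis) and curcumin liposomes (vertical axis), 1 point for each of 78 members, coloured by complex. Below 0 on both axes lie 61 genes, and the point at the upper right is Atp5s, at 0.55 and 0.62.

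Curcumin against empty liposomes gave no called member in either gate. In DiI-positive cells limma called 0 of 78 members and 0.0% of all genes. An unadjusted p under 0.05 was found for 2 of 78 members and 1165 of 14227 genes, a smaller share of members. The difference was above 0 for 55 members, with a median of 0.06 against 0.00 over all genes. The median was 0.02 without curcumin DiI-positive replicate 1, with 44 members above 0, and 0.086 without replicate 2 of that group, with 67 above 0, the ends of the range when 1 library was left out. Ndufv3, a flavoprotein-arm subunit, had the lowest p: it was 9.16, 9.41 and 9.45 after empty and 9.85, 9.67 and 9.51 after curcumin liposomes, a difference of 0.34 ± 0.15 (limma adjusted p = 0.584). Ndufb5 had 0.24 ± 0.11 (limma adjusted p = 0.584). Uqcrb had the lowest p in complex III at 0.22 ± 0.11, Cox7a2l in complex IV at 0.19 ± 0.09, Atp5l in complex V at 0.17 ± 0.12 and Sdha in complex II at 0.08 ± 0.09. The 3 curcumin libraries lay above the 3 empty ones for 8 members, against 4.93% of all genes, and below them for 2, against 5.09%.

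In DiI-negative cells limma called 0 members and 0.0% of all genes. An unadjusted p under 0.05 was found for 1 of 78 members and 469 of 14227 genes, a smaller share of members. There 63 of 78 members lay above 0, with a median of 0.07 against 0.00 over all genes. The median was 0.025 without curcumin DiI-negative replicate 2, with 48 members above 0, and 0.115 without replicate 3 of that group, with 66 above 0. These 2 values were again the ends of the range, and it was 0.046 without empty DiI-negative replicate 1. Cox7a2l was 11.03, 10.94 and 11.09 after empty and 11.16, 11.31 and 11.23 after curcumin liposomes, a difference of 0.22 ± 0.09 (limma adjusted p = 1.0). Cox7c, another small complex IV subunit, had 0.24 ± 0.12, Ndufb10 0.20 ± 0.09, Uqcr10 0.19 ± 0.12, Sdhc 0.18 ± 0.12 and Atp5c1 0.15 ± 0.08, the lowest p of their complexes apart from Cox7c, which came next after Cox7a2l. The curcumin libraries lay above the empty ones for 13 members, against 5.73% of all genes, and below them for none, against 5.5%. In both gates 49 members lay above 0. The 2 comparisons share no library, but libraries of the 2 gates may stem from the same mice, and members move together within a library.

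The interaction, the curcumin effect in DiI-positive minus that in DiI-negative cells, was called by limma for 0 members and 0.0% of all genes. An unadjusted p under 0.05 was found for 1 of 78 members and 527 of 14227 genes, a smaller share of members. The median interaction over the members was -0.02. The 1 member was Ndufb10 of the complex I membrane arm. It was 10.05, 10.09 and 10.03 in empty and 10.32, 10.29 and 10.14 in curcumin DiI-negative libraries, against 10.07, 10.03 and 9.99 in empty and 9.98, 9.91 and 9.89 in curcumin DiI-positive libraries. For Ndufb10 it was -0.30 ± 0.13 (limma adjusted p = 0.999). In the other complexes the lowest p belonged to Uqcr10 (-0.19 ± 0.17), Cox5b (-0.18 ± 0.16), Atp5c1 and Sdhc (-0.19 ± 0.17).

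Single libraries moved the members together. The mean log2 value over the 78 members was 10.21, 10.20 and 10.26 in empty DiI-negative and 10.12, 10.12 and 10.12 in empty DiI-positive libraries. It was 10.27, 10.38 and 10.22 in curcumin DiI-negative and 10.27, 10.13 and 10.14 in curcumin DiI-positive libraries. The empty groups did not overlap, whereas curcumin DiI-positive replicate 1 lay among the DiI-negative libraries. Curcumin DiI-negative replicate 2 was the highest of the 12 libraries for 37 of 78 members, against 8.41% of all genes, and its complex IV genes averaged 0.26 above their mean. Without that library 67 members lay below 0 in the average over both liposomes and the median was -0.10, while 2 members were called. Leaving out any 1 library left 66 to 71 members below 0. Without replicate 3 of both curcumin groups, an alternative added after the data were seen, 69 members lay below 0, the median was -0.135 and 6 members were called, with 1915 of all genes (13.46%) called there.

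**Figure D5:**
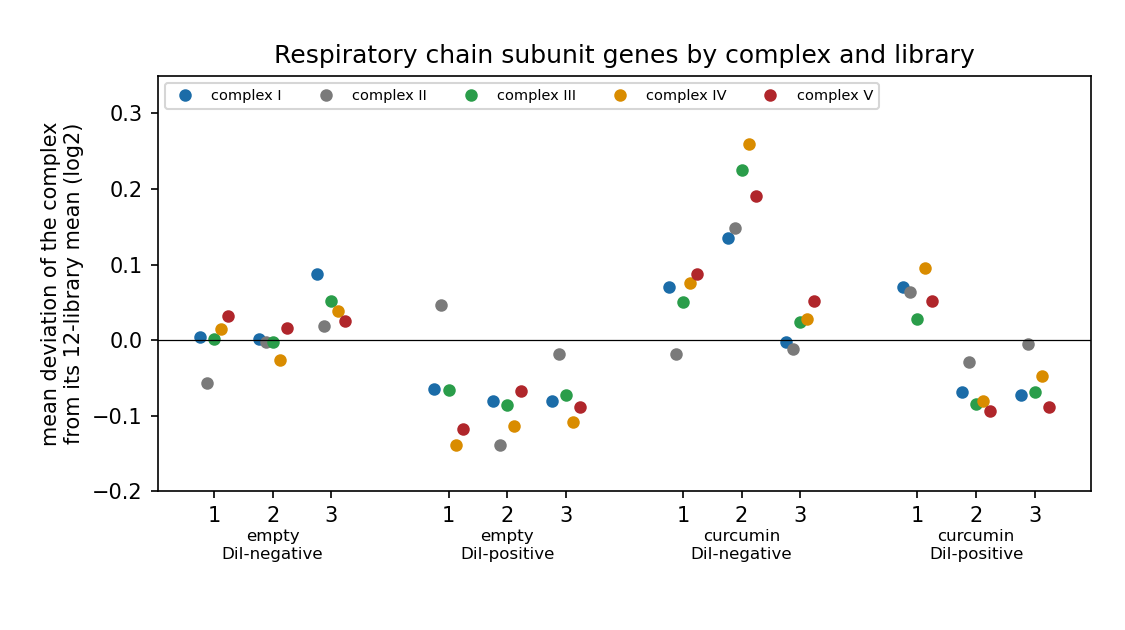
Mean deviation of the genes of each complex from their 12-library means on the log2 scale (vertical axis), in each library by group and replicate number (horizontal axis), 1 point a complex. Curcumin DiI-negative replicate 2 is highest in every complex, at 0.135 to 0.259, and curcumin DiI-positive replicate 1 lies above 0 in every complex while the other DiI-positive libraries lie below 0 outside complex II.

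After the group means were removed, the median correlation between pairs of members over the 12 libraries was 0.29, and 71.9% of 3003 pairs lay above 0. All pairs were measured in the same 12 libraries, which differ in depth and cell makeup, so the value is a description. The genes outside the list whose residual values were most like the members' mean were Crip1 (r = 0.97), a LIM-domain protein of immune cells, Paxx (r = 0.97), a DNA repair factor, the leukocyte surface protein gene Cd52 (r = 0.95), Cmtm7 (r = 0.95) and the mitochondrial ribosome gene Mrps7 (r = 0.95), each over 12 libraries. These 5 were picked as the highest r among all tested genes outside the list, so their r is high by selection and was not tested. Curcumin DiI-negative replicate 2 and curcumin DiI-positive replicate 1 were the highest of their groups for the members' mean. Both were also the highest of their groups for Crip1, at 12.90 and 11.91. Across the members, transcript length and the difference between the gates had a Spearman rho of 0.10.

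The subunits encoded in mitochondrial DNA had differences of the opposite sign. Of 13 genes, 11 were tested, and 8 rose in DiI-positive cells in the average over both liposomes, against 5.54% of all genes. No gene of the 11 fell, and the median difference was 0.57. The 8 were mt-Nd1 to mt-Nd6 of complex I (without mt-Nd4l), mt-Cytb of complex III and mt-Co1 of complex IV. mt-Nd2 was 12.10, 12.23 and 12.52 in empty DiI-negative and 12.81, 12.99 and 12.95 in empty DiI-positive libraries, and 12.46, 12.69 and 12.71 against 13.30, 13.13 and 13.73 after curcumin liposomes. It rose by 0.70 ± 0.11 (limma adjusted p = 0.00245), and mt-Co1, the catalytic subunit of cytochrome c oxidase, rose by 0.51 ± 0.09 (limma adjusted p = 0.00444). Of the 11 tested, 8 were higher in every DiI-positive than in every DiI-negative library under each liposome, against 3.99% of all genes. They were the same 8 that passed, in the same libraries, so this is no separate evidence. Under empty liposomes alone limma called 0 of 11, against 2.95% of all genes. At an unadjusted p under 0.05 there were 7, against 2540 of the 14227 genes. Under curcumin liposomes 7 rose, against 1.41% of all genes.

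mt-Co2, mt-Co3 and mt-Atp6 had mean log2 values of 4.49, 4.89 and 4.42, near the filter, and differences of 0.01 to 0.03. mt-Atp8 and mt-Nd4l lay under the filter. Near-identical nuclear copies of mitochondrial DNA can take such reads, and the counting is not given in the sources used here, so these values are uncertain. With the depth index as a covariate 2 of the 11 genes rose, in a fit that called 450 of all genes, 200 of them higher, in place of 1722. The contrast between nuclear and mitochondrially encoded subunits was not itself tested, and both sets of values stand side by side only.

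Other genes of the pathway were counted in the average over both liposomes, where 5.54% of all genes rose and 6.56% fell. Of 47 assembly factors tested, 0 rose and 1 fell, with a median of 0.02 against -0.14 for the subunits. The 1 was Ndufaf7, a methyltransferase for complex I assembly, which fell by 0.39 ± 0.11 (limma adjusted p = 0.0403). Among 20 electron carrier and coenzyme Q genes, Cycs, which encodes cytochrome c, fell by 0.33 ± 0.07 (limma adjusted p = 0.0152). It was 10.11, 10.08 and 10.13 against 9.95, 9.78 and 9.81 under empty liposomes and 10.21, 10.43 and 10.34 against 9.83, 9.95 and 10.03 under curcumin liposomes. Coq8a, a kinase-like protein needed for coenzyme Q synthesis, rose by 0.99 ± 0.17 (limma adjusted p = 0.00432).

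The lists that follow stand beside the same shares over all genes, 5.54% higher and 6.56% lower. Of 20 genes of the TCA cycle and pyruvate entry, which supply the electrons, 0 rose and 3 fell. These were Mdh2 (malate dehydrogenase, -0.31 ± 0.07), Dlst (of the oxoglutarate dehydrogenase complex, -0.30 ± 0.08) and Idh3a (isocitrate dehydrogenase, -0.36 ± 0.10), with limma adjusted p of 0.0148, 0.0339 and 0.0351 and a list median of -0.06. Of 19 glycolysis genes 0 rose and 3 fell, Ldha (-0.38 ± 0.08), Pfkp (-0.47 ± 0.12) and Pkm (-0.24 ± 0.07), with limma adjusted p of 0.0145, 0.0231 and 0.0496. The glycolysis median was -0.24, below that of the respiratory chain genes, and 17 of the 19 lay below 0. Of 13 biogenesis regulators Polrmt, the mitochondrial RNA polymerase, rose by 0.36 ± 0.10 (limma adjusted p = 0.0332) and 0 fell. Under curcumin liposomes Polrmt rose by 0.598 ± 0.135 (limma adjusted p = 0.0383). Under empty liposomes the gates overlapped, at 10.52, 10.41 and 10.52 in DiI-negative and 10.76, 10.46 and 10.57 in DiI-positive libraries. The interaction was 0.484 ± 0.191 and did not pass (limma adjusted p = 0.999). Of 77 genes of the mitochondrial ribosome 1 rose (Mrpl10) and 1 fell (Mrps30), with a median of -0.02.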

How the data were processed

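The authors deposited log2 values per gene, in 1 column for each of 12 libraries. The aligner STAR 2.4.0d, DESeq2 1.8.1 and the build GRCm38 are named in the submitters' processing notes. The counter, the annotation and the transform they do not name. Their spread narrows towards low values, as in a shrunken log2 scale, so differences of low genes are understated. The 24 sample records carry 12 library codes, 2 to a code, and each code counted as 1 library. Symbols came from GENCODE M21 for 99.3% of the genes not at 0. The letters of a code were matched to the groups that the series' design describes.

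limma 3.58.1 in R 4.3.3 was fitted once to all 12 libraries with 4 group means (8 residual and 3.51 prior degrees of freedom, variance trend), on genes averaging at least 4 on the log2 scale, with Benjamini-Hochberg adjustment over 14227 genes; it was tested on simulated data. Members, lists and tests were chosen with earlier results of these data known. Named genes are members past the threshold, the lowest p and the highest and lowest level per length in each complex, core subunits, isoform sets, the 5 most alike genes, and list members past the threshold or of lowest p; of the lowest-p genes, values are given for those the comparisons turn on. Alternatives were other filters, scalings, weights, a replicate block and leaving out each library. No label says whether equal library numbers mean paired libraries, and the fit treated them as unpaired. Of 18 same-numbered pairs, 2 had residual correlations over 0.1 (-0.11 to 0.33). Between the gates of 1 liposome, same-numbered pairs had 0.079, 0.004 and 0.076 for empty and 0.066, 0.035 and 0.328 for curcumin liposomes. Pairs of other numbers ran from -0.245 to 0.197, so pairing was not settled. Not every gene that the rule names is reported here.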

Additional observations from a re-analysis of the deposited data

Results flagged for a closer look

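Ndufb10, an accessory subunit of complex I, had differences between curcumin and empty liposomes of opposite sign in the 2 gates. Neither passed (unadjusted limma p of 0.0582 in DiI-negative and 0.301 in DiI-positive cells). In DiI-negative cells every curcumin library was above every empty library, against 5.73% of all genes. In DiI-positive cells every curcumin library was below every empty library, against 5.09% of all genes. There the nearest libraries had 9.9818 and 9.9897. The difference was 0.20 ± 0.09 in DiI-negative and -0.10 ± 0.09 in DiI-positive cells. The test of the difference between the gates gave -0.30 ± 0.13 with an unadjusted p of 0.0446 and a limma adjusted p of 0.999, so it did not pass over all genes.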

How the results depend on the processing

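With the average over both liposomes, the median over the members stayed below 0 in all 21 alternatives (-0.16 to -0.10). The number of members called was 4 (12.1% of all genes) and became 2 without a filter on low values (5.01%), 0 with the relative depth index as a covariate (3.16%), and 2 to 6 when 1 library was left out (8.08% to 15.77%; 2 without empty DiI-negative replicate 3, curcumin DiI-negative replicate 1 or replicate 2). The covariate took the 8 called mitochondrially encoded genes to 2, and the calls over all genes from 1722 to 450. Under curcumin liposomes the 1 call became 0 without the filter, with library weights, with only the libraries compared and with the depth covariate, and ranged from 0 to 2 when 1 library was left out; the median ranged from -0.175 to -0.066, the last without curcumin DiI-negative replicate 2. With the replicate block, which rests on numbers of unknown pairing, 4 members were called in the average and 0 under curcumin liposomes. Of 12 libraries, 8 correlated best with their own number. The median of the interaction reversed from -0.02 to values between 0.004 and 0.025 when 1 of 4 libraries was left out (0.004, 0.025, 0.012 and 0.011), with a range of -0.054 to 0.025. The cause was not tested. No call was made in the other comparisons under any alternative. Depth is known only as an order, and that only if the libraries lie within a doubling of each other, so no counting interval can be given. The fit with the depth covariate used the size of the index, so its results hold only as far as that size is right.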
